A study of Mus musculus with 24 samples.

Results

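The endoplasmic reticulum (ER) folding and secretory pathway genes are 40 genes chosen by symbol out of 17017 in the deposited tables. They comprise 11 chaperones and co-factors, 6 genes of disulfide formation, 4 stress sensors and transcription factors, 7 genes of ER-associated degradation, 5 genes of the translocon, 4 subunits of the translocon-associated TRAP complex and 3 subunits of signal peptidase. All 40 were found, and all 40 reached a TPM value (reads per length of gene, scaled to a fixed library total) of 1 in at least 3 libraries, the filter for testing. The RNA came from primary alveolar macrophages, the resident phagocytes of the air spaces, of wild-type BALB/cJ mice, taken 20 h after stimulation. The 8 groups of 3 libraries were untreated cells and cells given recombinant IL-13, IL-17A, IL-33, IL-13 with IL-17A, IL-33 with IL-17A, IL-33 with IL-13, or the triple combination of IL-33, IL-13 and IL-17A. Strain, genotype and time were shared by all groups, while the sources used here do not give cytokine doses. Nor do they say whether the 3 libraries of a group stem from different mice or dishes, so p-values below measure the spread between libraries, which may be technical.

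Proteins bound for the cell surface, the lysosome or secretion enter the ER through the Sec61 channel, lose their signal peptide, and are folded by chaperones and disulfide isomerases. Proteins that fail to fold are drawn back to the cytosol and degraded. When folding lags behind, the sensors IRE1 (gene Ern1), ATF6 and PERK (gene Eif2ak3) start the unfolded protein response, in which ATF6 and the IRE1-spliced form of XBP1 drive transcription of chaperone and degradation genes, and alveolar macrophages, which are rich in lysosomes and secreted enzymes, use this route for much of what they make.

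The 24 libraries held 9.13 to 12.89 M recovered reads, and the members had between 359 reads (Sec61g) and 25636 reads (Hspa5) in 1 library. On the second principal component 3 libraries stood apart, most of all replicate 2 of the triple combination, and less so replicate 2 of IL-17A and replicate 1 of untreated cells. Some results they touch, among them the Atf6 value and the IL-33 counts, are also given without them, while most member values are not. The label alveolar macrophage was checked against 12 markers, of which 10 were at 1 TPM or more in all 24 libraries. Siglecf ranged from 257.1 to 547.5 TPM and Itgax from 1552 to 2524 TPM, while Marco stayed between 0.149 and 0.799 TPM and Car4 was listed at 0 in 4 libraries. The summed level of the 12 markers was 13049 to 14906 TPM without IL-13 and 19329 to 22161 TPM with it. Its largest part was Lyz2, at 8580 to 11356 TPM over the 24 libraries. The widest ranges were those of Chil3 (363.6 to 5317 TPM) and Ear2 (530.8 to 4655 TPM). The shift of the sum is therefore not that of each marker. Of markers of other cells, 3 of 8 granulocyte and mast cell genes could be analysed and, with S100a8 far ahead, summed to 135.9 to 177.0 TPM without IL-13 and 67.3 to 127.3 TPM with it. The sum of 3 of 6 fibroblast genes was 4.34 to 6.32 TPM without IL-13 and 2.22 to 4.0 TPM with it, with Col1a1 and Dcn at 0 in 18 libraries each. That of 3 of 7 epithelial genes was 3.73 to 5.29 TPM without and 1.38 to 2.71 TPM with IL-13, with Krt8 at 0 in 16 libraries. Endothelial genes (4 of 4) summed to 8.45 to 12.41 and 6.44 to 12.02 TPM, and dendritic cell genes (3 of 4) to 2.04 to 4.13 and 1.06 to 4.34 TPM. Sdc1, the 1 of 10 plasma and B cell markers analysed, ranged from 6.85 to 10.86 TPM without and from 5.76 to 15.55 TPM with IL-13. The part of these shifts in the results below was not tested, and in bulk RNA a change in the number of cells of a type cannot be told apart from a change in RNA per cell.

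Levels were set between genes per exon length, because the deposited TPM divides by the whole gene span. Exon length counts every annotated exon of a gene, so a gene read mostly as a shorter transcript comes out too low. It was 8173 bases for Ern1 and 8787 for Sec63, against 2880 for Calr. On the exon-length scale, recomputed from recovered reads, untreated cells held most of calreticulin (Calr), a lectin chaperone of glycoproteins, at 1982 ± 25.0 (SD, n = 3). The disulfide isomerases P4hb at 1105 ± 38.2 and Pdia3 at 1038 ± 10.3 followed, and Pdia3 and the Hsp70-type chaperone BiP (Hspa5), at 1036 ± 34.5, did not differ beyond their spread. The sensor Ern1 was lowest at 22.3 ± 3.97, followed by the sensor Eif2ak3, Sec63 at 38.1 ± 1.21, Ero1l at 40.8 ± 3.19, Derl2 at 42.1 ± 1.85 and Ero1lb at 43.2 ± 3.03. The third sensor, Atf6, was at 54.3 ± 8.15 and Xbp1 at 265 ± 9.75. All other levels below are deposited TPM and compare libraries for 1 gene.

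The main question was how the cytokines, alone and combined, moved these genes, and IL-13 accounted for nearly all of the movement. With IL-13, averaged over its 4 cytokine backgrounds (12 libraries with against 12 without), 32 of the 40 members rose, 1 fell (Atf6) and 7 were not called. Of all 13215 tested genes 20.0% rose and 30.9% fell in this comparison, with limma on log2(TPM + 1) at an adjusted p under 0.05. The median log2 fold change was 0.50 over the members and -0.05 over all tested genes. With median-ratio scaling of the libraries 36 members rose and 1 fell, and the split of all genes moved from 2644 higher and 4079 lower to 3394 and 3421. In 31 members all 12 libraries with IL-13 lay above all 12 without, which held for 6.18% of all tested genes, and in 0 members did all 12 lie below (8.87% of genes). The library medians of the members show the same step: relative to the untreated mean, they lay between -0.05 and 0.07 on the log2 scale in the 12 libraries without IL-13 and between 0.48 and 0.57 in the 12 with it.

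**Figure D1:**
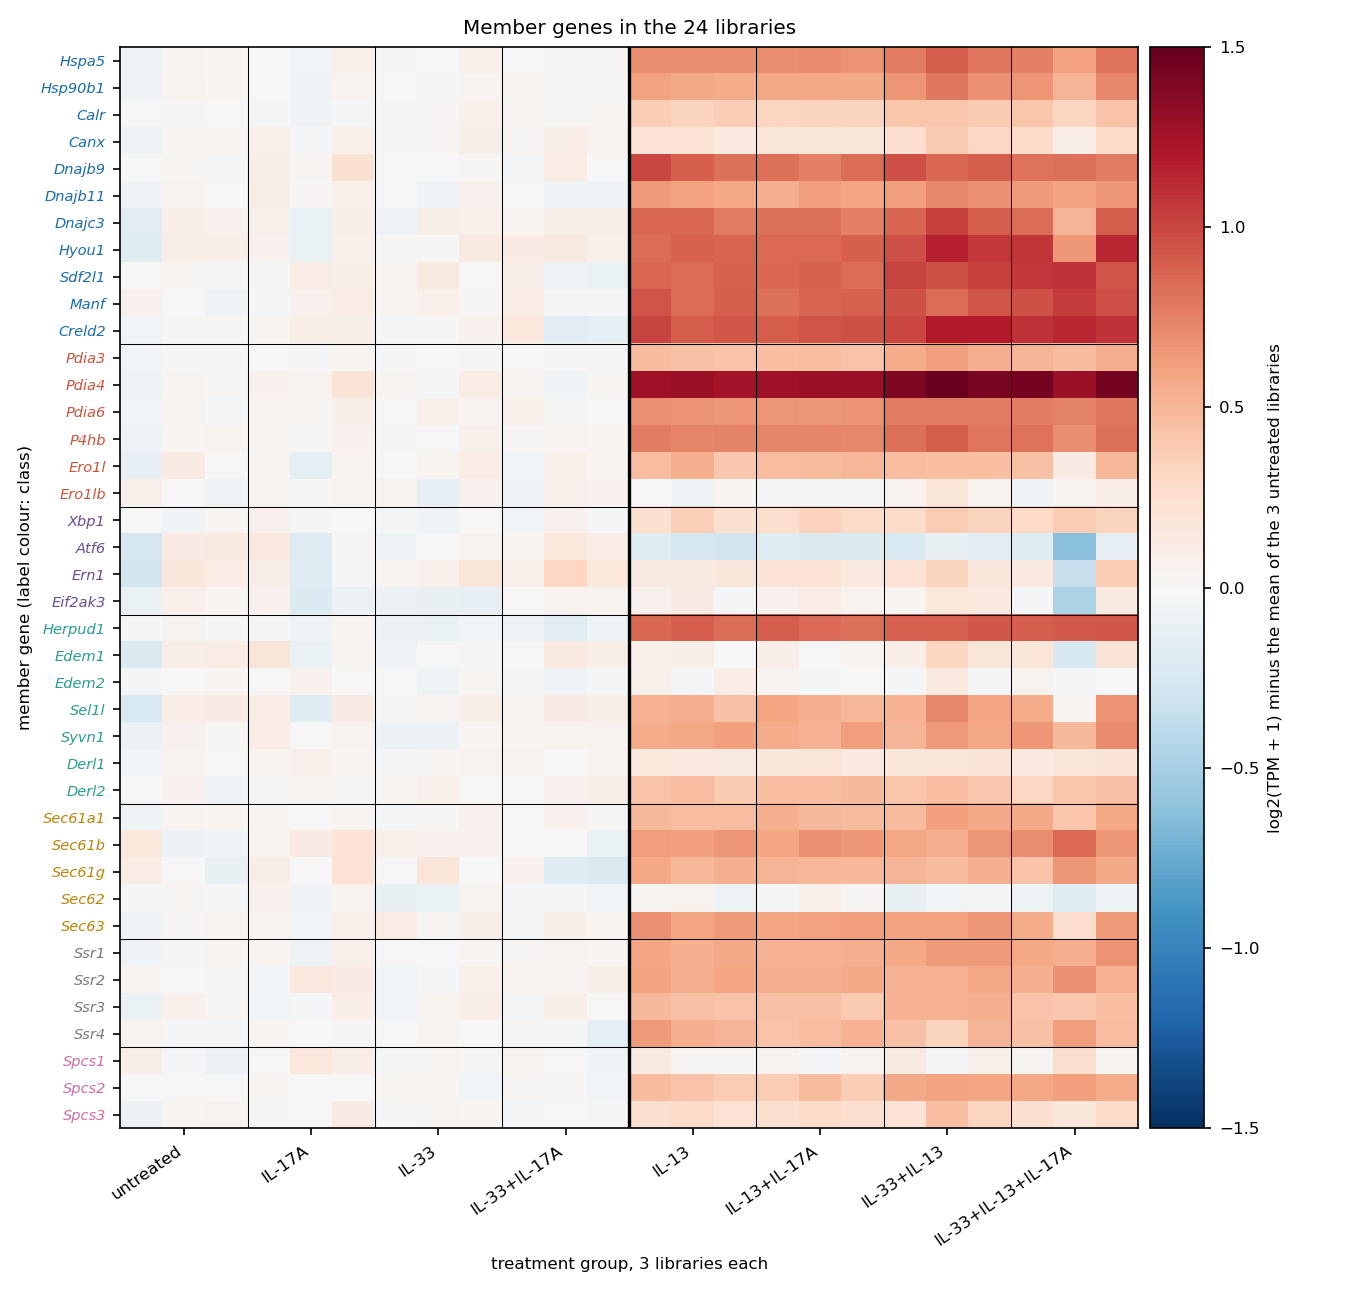
Level of the 40 member genes (rows, coloured by class) in the 24 libraries (columns, 3 per group) as log2(TPM + 1) minus the mean of the 3 untreated libraries. Most members are near 0 in the 12 libraries without IL-13 and raised in the 12 with it, while Atf6 is below 0 in all 12 with it. Replicate 2 of the triple combination is paler for Hyou1, Dnajc3, Sel1l and Sec63. It is the lowest of the 24 libraries for Atf6, Ern1, Eif2ak3, Edem1 and Sec62. Untreated replicate 1 is below 0 for Atf6, Ern1, Sel1l and Edem1.

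Promoters of the members were searched for the elements that the unfolded protein response is known to use. RefSeq promoters on GRCm38.p6, from 250 bases before to 50 after the start, were at hand for 33 of the 40. The ER stress element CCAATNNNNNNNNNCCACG, on either strand, was in 9 of the 33 members (27.3%) and in 0.137% of all 27025 genes with a promoter there. Those 9 were Hspa5, Hsp90b1, Calr, Canx, Dnajc3, Creld2, Pdia6, Syvn1 and Ero1lb, and 8 of them rose with IL-13, with a median log2 fold change of 0.61 over the 9. Of the 24 members without the element 18 rose, with a median of 0.50. A looser form, CCAATNNNNNNNNNCCACN, which includes the first and was chosen after the values were seen, was in 13 members (39.4%) and 0.429% of genes, and added Pdia3, Pdia4, Herpud1 and Derl2. The related ERSE-II, ATTGGNCCACG, was in 2 members, Dnajb11 and Herpud1 (6.06%, against 0.0444% of genes). The letters TGACGTGG of another element of this response, UPRE, were in 0 of the 33 member promoters and 0.714% of genes. A match is a description of letters and not a bound site. The members were chosen as genes of this pathway, so the higher share among them is not a result of these data.

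The promoters of 5 members that rose and of Ero1lb, which has the element and was not called, are shown from their exon-free stretch, 5′ to 3′ on the gene's strand, with the matched element in capitals. Creld2 (chr15:88819396-88819645, plus strand), Dnajc3 (chr14:118937682-118937931, plus strand) and Pdia6 (chr12:17266339-17266544, plus strand) hold the strict element, whose match begins 126, 105 and 98 bases before the start. Pdia4 (chr6:47813513-47813762, minus strand) holds the looser form 108 bases before the start, and Herpud1 (chr8:94386179-94386428, plus strand) holds ERSE-II 52 bases before it. The looser match of Herpud1 runs past the end of the printed stretch and is left in small letters. In Ero1lb (chr13:12565633-12565873, plus strand), which lies outside the rule for named genes and was picked after its values were seen, the strict element begins 201 bases before the start. Hsp90b1, which rose, has 2 strict matches, of which the first begins at 212 bases and the other lies nearer to the start. The sequences are RefSeq's.
Creld2: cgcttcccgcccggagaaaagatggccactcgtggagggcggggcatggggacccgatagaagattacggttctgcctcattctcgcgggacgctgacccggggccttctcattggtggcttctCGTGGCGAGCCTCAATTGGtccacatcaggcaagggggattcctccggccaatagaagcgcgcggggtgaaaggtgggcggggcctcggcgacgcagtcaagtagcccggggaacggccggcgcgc
Dnajc3: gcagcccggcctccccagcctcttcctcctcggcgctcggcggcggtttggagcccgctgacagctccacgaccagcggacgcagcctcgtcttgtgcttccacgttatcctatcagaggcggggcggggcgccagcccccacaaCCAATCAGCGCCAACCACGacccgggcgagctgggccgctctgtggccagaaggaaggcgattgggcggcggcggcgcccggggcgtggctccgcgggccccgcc
Pdia6: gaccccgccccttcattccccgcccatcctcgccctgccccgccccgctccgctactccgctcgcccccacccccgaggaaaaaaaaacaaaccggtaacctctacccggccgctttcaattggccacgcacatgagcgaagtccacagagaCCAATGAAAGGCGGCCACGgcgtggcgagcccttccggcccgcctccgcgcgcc
Pdia4: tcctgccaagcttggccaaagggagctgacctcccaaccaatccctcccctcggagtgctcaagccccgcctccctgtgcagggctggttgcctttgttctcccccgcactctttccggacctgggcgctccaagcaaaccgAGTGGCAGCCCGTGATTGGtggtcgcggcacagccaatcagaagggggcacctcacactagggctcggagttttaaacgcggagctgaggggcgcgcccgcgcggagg
Herpud1: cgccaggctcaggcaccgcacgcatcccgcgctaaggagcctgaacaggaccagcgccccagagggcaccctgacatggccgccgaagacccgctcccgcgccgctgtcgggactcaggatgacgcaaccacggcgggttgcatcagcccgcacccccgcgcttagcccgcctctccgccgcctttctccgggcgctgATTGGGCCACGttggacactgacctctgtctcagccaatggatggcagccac
Ero1lb: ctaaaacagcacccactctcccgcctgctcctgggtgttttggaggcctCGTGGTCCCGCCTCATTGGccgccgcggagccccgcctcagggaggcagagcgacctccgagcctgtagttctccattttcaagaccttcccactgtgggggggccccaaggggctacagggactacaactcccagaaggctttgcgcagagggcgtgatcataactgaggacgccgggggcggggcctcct

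All 11 chaperones and co-factors rose with IL-13, with a median log2 fold change of 0.80. Creld2, an ER protein induced by folding stress, was at 105.6, 109.8 and 110.0 TPM in untreated cells and at 219.3, 204.2 and 207.0 TPM with IL-13. It rose by 1.02 on the log2 scale over the 4 backgrounds (limma, SE 0.0322, adjusted p = 2.45e-15), and no library with IL-13 came down to the highest without. Sdf2l1, a partner of BiP's co-chaperones, was at 923.5, 942.9 and 909.4 TPM untreated and at 1681, 1658 and 1706 TPM with IL-13, a rise of 0.92 (limma, SE 0.0247, adjusted p = 2.15e-16). Manf, a small BiP-binding protein that is also secreted, went from 36.1, 34.5 and 32.6 TPM to 67.0, 62.3 and 65.1 TPM, a log2 fold change of 0.89 (limma, SE 0.025, adjusted p = 4.28e-16). For both genes, too, the 12 libraries with IL-13 lay clear of the 12 without. Hyou1, which exchanges the nucleotide on BiP, was at 224.6, 270.8 and 269.6 TPM untreated and at 456.3, 470.8 and 464.9 TPM with IL-13 (log2 fold change 0.89, limma SE 0.0469, adjusted p = 5.75e-12).

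The J-domain proteins, which hand clients to BiP, followed. Dnajb9 stood at 121.9, 125.2 and 121.2 TPM untreated and at 245.9, 229.0 and 219.3 TPM with IL-13 (log2 fold change 0.82, limma SE 0.0239, adjusted p = 6.67e-16). Dnajc3 stood at 42.2, 51.0 and 49.9 TPM untreated and at 87.1, 87.5 and 82.5 TPM with IL-13 (0.80, limma SE 0.043, adjusted p = 8.49e-12). For Hyou1 and Dnajc3 the lowest untreated library was replicate 1 and the lowest with IL-13 was replicate 2 of the triple combination, at 400.1 and 68.3 TPM, yet these too lay above every library without IL-13. Dnajb11 rose by 0.62. BiP itself had the lowest, median and highest levels of 2218, 2357 and 2469 TPM without IL-13 and 3546, 3806 and 4394 TPM with it, a rise of 0.73. Hsp90b1, the ER form of Hsp90, rose by 0.61. The lectin chaperones Calr and Canx, which hold glycoproteins during folding, rose least, by 0.37 and 0.20. Canx ran from 203.6 to 230.8 TPM without IL-13 and from 230.9 to 284.3 TPM with it, so its libraries only just parted.

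**Figure D2:**
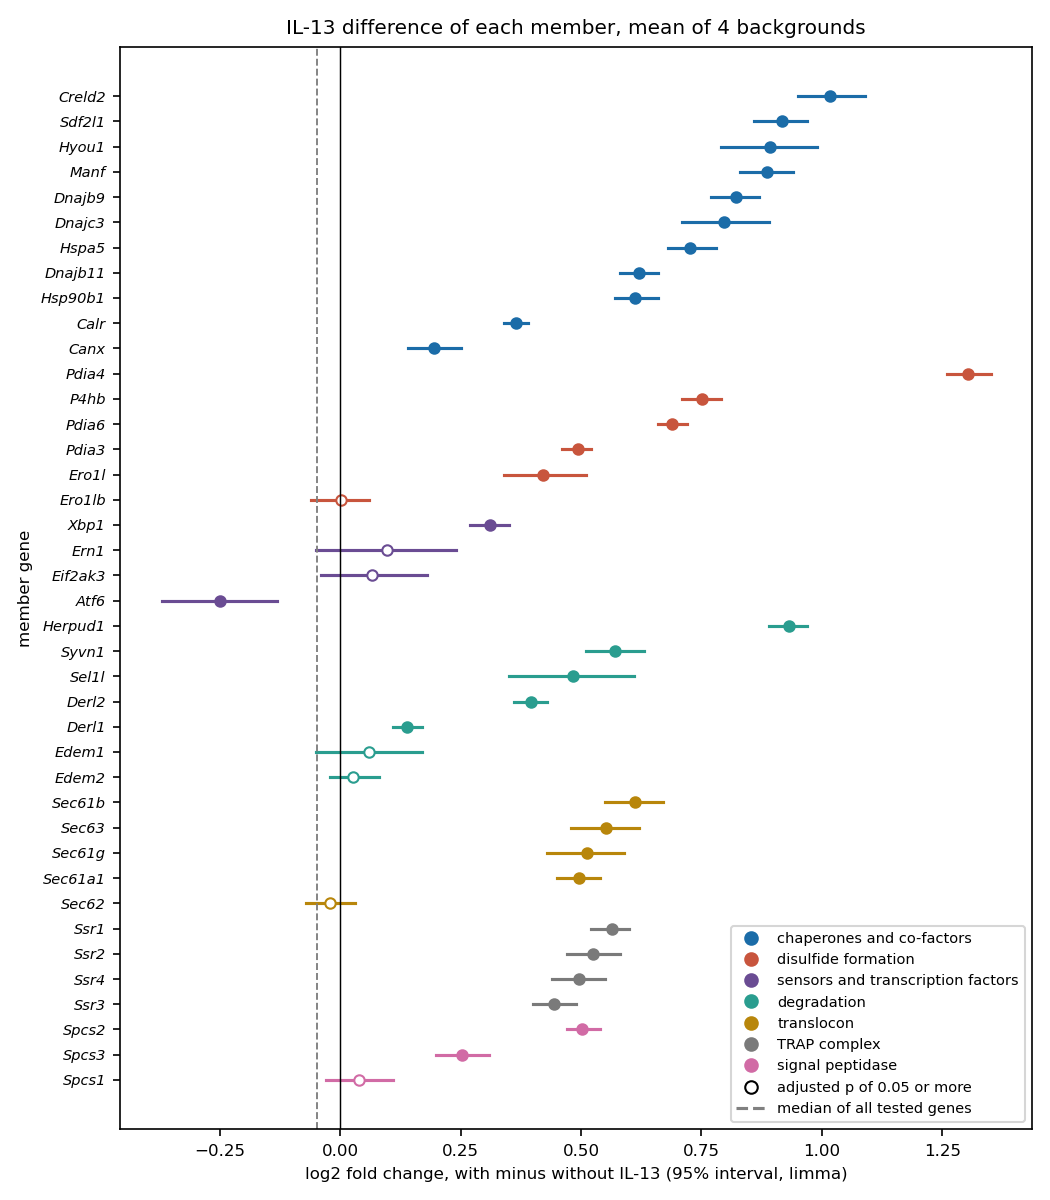
Log2 fold change of each member with minus without IL-13, mean of 4 backgrounds (x axis, points with 95% intervals from limma), by class; open circles have an adjusted p of 0.05 or more and the dashed line is the median of all tested genes, -0.05. Pdia4 is farthest right at 1.30, Atf6 is the called member below 0 at -0.25, and 7 members have open circles.

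In disulfide formation 5 of 6 members rose, and Pdia4 changed most of all 40. Pdia4 encodes the isomerase ERp72 (ENSMUSG00000025823, mm10 chromosome 6, bases 47796141 to 47813430). It was at 78.0, 83.7 and 82.7 TPM in untreated cells, 85.0, 84.6 and 93 TPM with IL-17A, 83.8, 80.6 and 88.3 TPM with IL-33, and 83.8, 78.2 and 83.2 TPM with IL-33 and IL-17A. With IL-13 it was at 197.4, 201.4 and 194.6 TPM, with IL-13 and IL-17A at 197.5, 199.1 and 199.2 TPM, with IL-33 and IL-13 at 216.5, 229.0 and 220.1 TPM, and with all 3 cytokines at 221.8, 201.2 and 222.7 TPM. The levels thus fell into 2 tiers with a wide gap, whose log2 fold change was 1.30 (2.47-fold on the TPM + 1 scale, limma SE 0.0231, adjusted p = 4.78e-19), higher than 99.3% of tested genes. The classical isomerase P4hb rose by 0.75 and Pdia6 by 0.69, the latter from a median of 259.2 to 415.5 TPM. Pdia3, the isomerase that works with calreticulin and calnexin, rose by 0.49, from a median of 393.3 to 543.5 TPM.

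The oxidases that recharge these isomerases differed from each other. Ero1l had a lowest, median and highest level of 16.2, 18.5 and 19.6 TPM without IL-13 and 19.7, 25.1 and 26.4 TPM with it, a rise of 0.42 (limma adjusted p = 3.44e-08). Ero1lb had 17.1, 19.4 and 19.9 TPM without and 17.9, 18.9 and 21.4 TPM with IL-13, a log2 fold change of 0.00 with a 95% interval of -0.06 to 0.06. Its libraries overlapped throughout, although its promoter holds the strict ER stress element.

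Of the sensors and transcription factors Xbp1 rose, Atf6 fell, and Ern1 and Eif2ak3 were not called. Xbp1 (mm10 chromosome 11, bases 5520659 to 5525893) was at 492.4, 472.9 and 505.5 TPM untreated and at 581.2, 630.5 and 580.7 TPM with IL-13. Over the 4 backgrounds it rose by 0.31 (limma, SE 0.0195, adjusted p = 8.19e-11), less than most members of the other classes, and its 12 libraries with IL-13 lay above the 12 without. Gene-level values do not show how much of the Xbp1 RNA was spliced.

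Atf6 (mm10 chromosome 1, bases 170704674 to 170867771) was at 7.45, 9.97 and 10.1 TPM in untreated cells, 10.2, 7.8 and 9.19 TPM with IL-17A, 8.62, 9.07 and 9.44 TPM with IL-33, and 9.31, 10.2 and 9.9 TPM with IL-33 and IL-17A. It was at 7.91, 7.45 and 7.37 TPM with IL-13, 7.89, 7.78 and 7.68 TPM with IL-13 and IL-17A, 7.62, 8.35 and 7.99 TPM with IL-33 and IL-13, and 7.9, 5.55 and 8.18 TPM with all 3. It fell by 0.25 on the log2 scale (limma, SE 0.0573, adjusted p = 0.00117), and the ranges overlapped because untreated replicate 1 and IL-17A replicate 2, both among the libraries that stood apart, were as low as cells with IL-13. Without the 3 libraries that stood apart the log2 fold change was -0.27 (limma adjusted p = 3.21e-07). Ern1 was at 4.58, 6.65 and 6.3 TPM untreated and 6.46, 6.46 and 6.62 TPM with IL-13, a log2 fold change of 0.10 over the backgrounds (95% interval -0.05 to 0.24). Eif2ak3 was at 9.01, 10.3 and 9.98 TPM untreated and 10.2, 10.7 and 9.56 TPM with IL-13, with a log2 fold change of 0.07 (95% interval -0.04 to 0.18). For both, as for Atf6, replicate 2 of the triple combination was the lowest of the libraries with IL-13, at 4.34 TPM for Ern1 and 6.75 TPM for Eif2ak3. Without that library the count of members called over the 4 backgrounds was 35 in place of 33. Which members were added, and the Ern1 and Eif2ak3 values without it, are not given here.

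**Figure D3:**
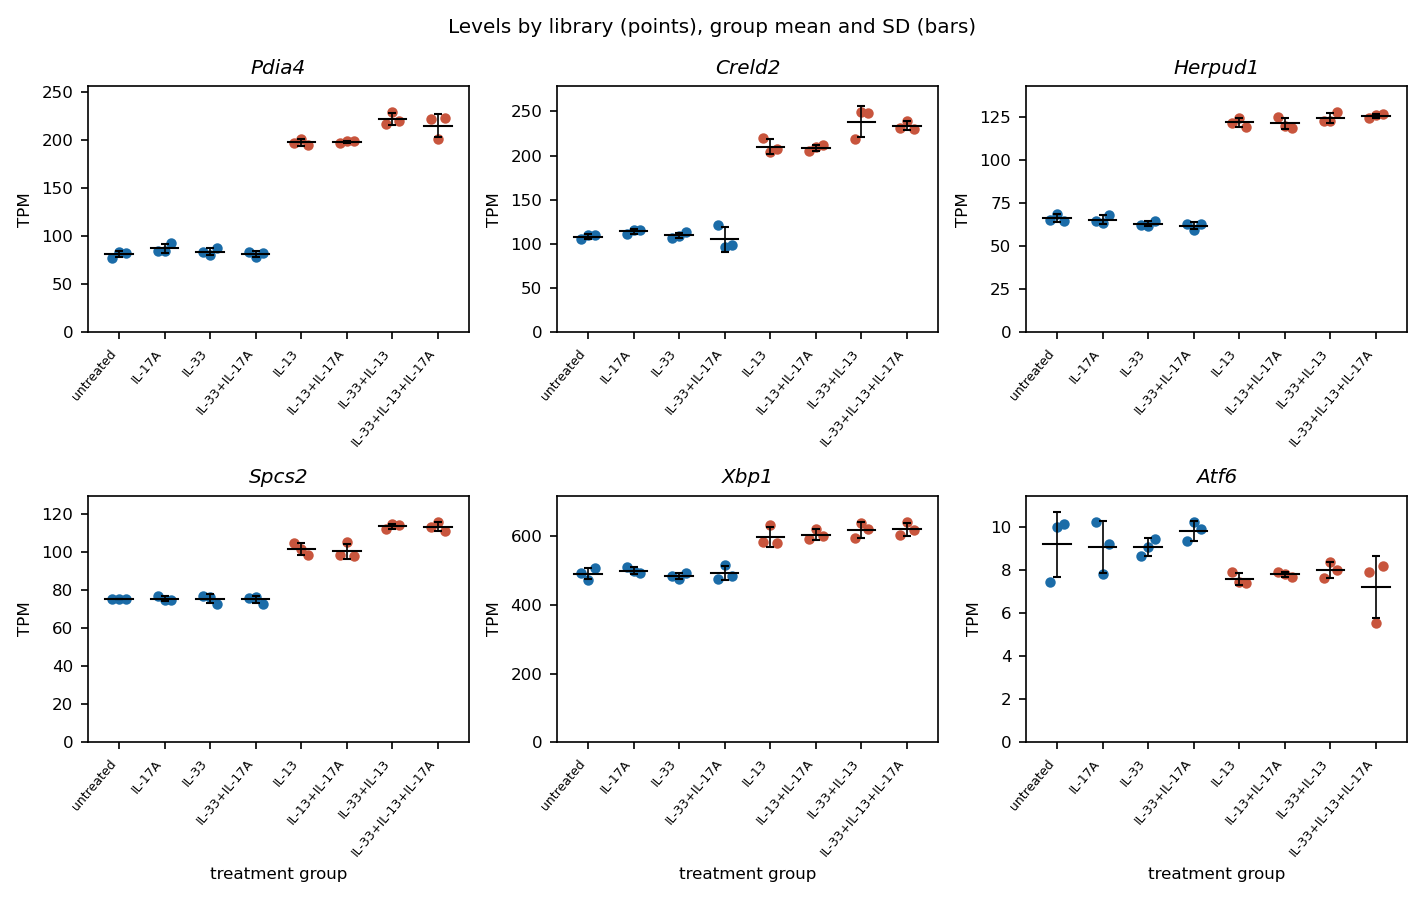
TPM in each library (points) with the group mean and SD (bars, n = 3) for Pdia4, Creld2, Herpud1, Spcs2, Xbp1 and Atf6, with the 4 groups without IL-13 on the left in blue and the 4 with IL-13 on the right in red. Pdia4, Creld2, Herpud1, Spcs2 and Xbp1 step up with IL-13 in every library, Spcs2 steps up again with IL-33 beside IL-13, and Atf6 overlaps, with its lowest point at 5.55 TPM in the triple combination.

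Of the 7 degradation genes 5 rose and 2 were not called. Herpud1, which gathers the degradation complex at the ER membrane, was at 65.5, 69.1 and 64.8 TPM untreated and at 121.8, 124.9 and 119.6 TPM with IL-13, and rose by 0.93 (limma, SE 0.0176, adjusted p = 1.14e-18) with no overlap between libraries. The ubiquitin ligase gene Syvn1 rose by 0.57, and Sel1l, which encodes its adaptor, by 0.48 (limma adjusted p = 1.94e-06). Sel1l libraries overlapped, at 71.7 to 92.4 TPM without IL-13 and 86.7 to 139.5 TPM with it, the 86.7 TPM being replicate 2 of the triple combination. The derlin genes Derl2 and Derl1, whose products form the path out of the ER, rose by 0.40 and 0.14. Edem1 and Edem2, which mark misfolded glycoproteins by trimming their sugars, had log2 fold changes of 0.06 (95% interval -0.05 to 0.17) and 0.03 (95% interval -0.02 to 0.08). The degradation class was therefore uneven, from 0.03 to 0.93, with a median of 0.40.

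At the entry to the ER, 4 of 5 translocon members rose. Sec61a1, which encodes the channel, had a lowest, median and highest level of 168.4, 179.9 and 184.8 TPM without IL-13 and 235.6, 248.3 and 271.5 TPM with it, a rise of 0.49. The small subunit genes Sec61b and Sec61g rose by 0.61 and 0.51, and Sec63, whose product recruits BiP to the channel, by 0.55. Sec62, which encodes the partner of Sec63, had a log2 fold change of -0.02 (95% interval -0.07 to 0.03), with medians of 61.5 TPM without and 61.1 TPM with IL-13. All 4 TRAP subunit genes rose by similar amounts, Ssr1 by 0.56, Ssr2 by 0.53, Ssr4 by 0.50 and Ssr3 by 0.44. Of the signal peptidase subunit genes Spcs2 rose by 0.50 (limma, SE 0.0167, adjusted p = 5.37e-15) and Spcs3 by 0.25, while Spcs1 had a log2 fold change of 0.04 (95% interval -0.03 to 0.11). Subunits of 1 complex thus did not all move alike.

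Reads of 8 members may include reads of an overlapping protein-coding gene, since the sources used here do not say how strand was treated in counting. The partner was small for Pdia3, Spcs2 and Spcs3, whose means were 12170, 2450 and 2701 reads against 19 for Catsper2, 5 for Xrra1 and 9 for Asb5. It was larger for Syvn1 (Mrpl49, 331 against 1234 reads), Derl2 (Mis12, 412 against 1240), Spcs1 (Glt8d1, 350 against 1141) and Manf (Rbm15b, 653, and Dcaf1, 150, against 2815), whose values are uncertain to that extent. The partner of Pdia6, Atp6v1c2, was not analysed here. Calr and Spcs2 have annotated pseudogenes, and a pseudogene overlaps Hsp90b1 (1810014B01Rik) and Ssr2 (Gm10704) on the other strand. Other members may have pseudogenes as well. The sources used here do not say how reads shared between copies were counted.

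The IL-13 difference was next taken in each background, in 4 comparisons that share no library. Without another cytokine 32 members rose and 0 fell, where 29.8% of all 13215 genes were called in either direction and 1857 rose. On IL-17A 31 rose and 0 fell (29.8% of all genes called, 1614 rose), and on IL-33 32 rose and 0 fell (23.9% called, 1475 rose). On IL-33 with IL-17A 32 rose and 1 fell (32.7% called, 1450 rose and 2871 fell). The members' medians were 0.52, 0.47, 0.54 and 0.51, beside -0.03, -0.04, -0.02 and -0.09 over all genes. Of the 40, 31 rose in each of the 4 comparisons, Canx rose in 3 (not on IL-17A), 7 were called in none, and Atf6 fell in the last. Pdia4 had log2 fold changes of 1.27, 1.17, 1.39 and 1.39, and Calr, whose values spread least, 0.36, 0.36, 0.38 and 0.36. The difference between a member's largest and smallest value had a median of 0.16 and was widest for Eif2ak3, at 0.38. Atf6 was called lower on IL-33 with IL-17A at -0.41 (limma adjusted p = 0.00965), and without replicate 2 of the triple combination the value was -0.26 (limma adjusted p = 0.0705).

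Where IL-13 was present, IL-33 raised a few members further by small amounts. Of the 40, 6 rose and 0 fell, against 2.53% of all tested genes that rose and 4.48% that fell (limma, 6 libraries with IL-33 against 6 without, all with IL-13). They were Spcs2, Creld2, Sdf2l1, Pdia4, Pdia3 and Pdia6, that is 3 isomerase genes, 2 of the chaperone class and 1 of signal peptidase. The median was 0.04 over the members and -0.03 over all genes, and 29 of 40 were above 0. At an unadjusted p under 0.05 there were 15 members, of which Sec62, at -0.10, was the one below 0. Leaving out replicate 2 of the triple combination raised the count of called members from 6 to 11, and leaving out the 3 libraries that stood apart raised it to 13. With median-ratio scaling it was 12, without Sdf2l1 (limma adjusted p = 0.0671), and with voom on recovered reads it was 15. Sdc1, the 1 of 10 plasma and B cell markers analysed, moved with IL-33 here: it was at 14.31 to 15.55 TPM with IL-13 and 12.36 to 14.96 TPM with IL-13 and IL-17A, but at 6.76 to 7.28 TPM with IL-33 and IL-13 and 5.76 to 8.09 TPM with all 3 cytokines. The dendritic cell genes (3 of 4, with Ccr7 at 0 in 16 libraries and Xcr1 in 14) summed to 2.9 to 4.34 and 2.73 to 4.17 TPM in the 2 groups without IL-33 and to 1.74 to 2.67 and 1.06 to 2.43 TPM in the 2 with it. By background, the fibroblast and endothelial sums overlapped between libraries with and without IL-33. The alveolar macrophage sum was 21190 to 22161 TPM with IL-13 and 19778 to 20453 TPM with IL-33 and IL-13. With IL-17A also present it overlapped, at 20177 to 21512 TPM without IL-33 and 19329 to 20240 TPM with it. Granulocyte sums were 84.75 to 94.47 TPM with IL-13 and IL-17A and 94.98 to 127.31 TPM with all 3 cytokines. Epithelial sums in these 2 groups were 1.54 to 1.7 and 1.98 to 2.58 TPM. In the groups without IL-17A, granulocyte and epithelial sums overlapped. The part of these marker differences in the member differences was not tested.

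Spcs2, a subunit gene of the peptidase that removes signal peptides (ENSMUSG00000035227, mm10 chromosome 7, bases 99837569 to 99863462), was the clearest of the 6. It was at 104.8, 101.3 and 98.1 TPM with IL-13 and at 112.0, 114.5 and 113.8 TPM with IL-33 and IL-13, and at 98.3, 104.9 and 97.6 TPM with IL-13 and IL-17A and at 113.1, 115.5 and 110.9 TPM with all 3 cytokines. The 6 libraries with IL-33 all lay above the 6 without, and the rise was 0.17 (limma, SE 0.0236, adjusted p = 9.39e-05). Taken singly, the difference was 0.16 on IL-13 (limma adjusted p = 0.00969) and 0.17 on IL-13 with IL-17A (limma adjusted p = 0.00418). On IL-13 the call was lost with median-ratio scaling (limma adjusted p = 0.178) and with voom on recovered reads (limma adjusted p = 0.106). Each of these comparisons called 1 more member, Pdia3 at 0.13 on IL-13 (limma adjusted p = 0.01) and Pdia6 at 0.10 on IL-13 with IL-17A (limma adjusted p = 0.0466), beside 0.832% and 1.15% of all genes that rose and 1.74% and 2.40% that fell. With only the groups compared in the fit, 0 members were called in both comparisons, while median-ratio scaling called 5 and 8 and voom on recovered reads 7 and 10.

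Creld2 was at 219.3, 204.2 and 207.0 TPM with IL-13 and 218.5, 248.7 and 247.6 TPM with IL-33 added, and at 204.8, 209.6 and 211.9 TPM with IL-13 and IL-17A and 231.4, 239.5 and 230.3 TPM with IL-33 added. Its rise of 0.17 (limma, SE 0.0455, adjusted p = 0.0267) rested on libraries that touched, and the call was lost in 7 of the 12 fits that left out 1 library (limma adjusted p 0.052 to 0.0741). Sdf2l1 was at 1658 to 1710 TPM in the 6 libraries with IL-13 and no IL-33 and at 1786 to 1968 TPM in the 6 with both, a rise of 0.15 (limma, SE 0.0349, adjusted p = 0.00898). Those ranges did not overlap, but with median-ratio scaling the Sdf2l1 value of 0.18 was not called (limma adjusted p = 0.0671). Pdia6, at 397.6 to 407.1 TPM without and 423.9 to 439.5 TPM with IL-33, did not overlap either, and rose by 0.10 (limma, SE 0.0196, adjusted p = 0.00301). Pdia3, at 523.8 to 544.0 TPM and 542.9 to 602.4 TPM, rose by 0.10 (limma, SE 0.0188, adjusted p = 0.00253). Pdia4 rose by 0.14 (limma, SE 0.0327, adjusted p = 0.0116). For Pdia3 and Pdia4 the ranges met, and the lowest library with IL-33 was replicate 2 of the triple combination. The share of all tested genes whose ranges did not overlap in this comparison is not given here.

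Whether IL-33 acted differently beside IL-13 than without it was tested as the IL-33 by IL-13 interaction. Spcs2 was the 1 of 40 members called, at 0.17 (limma, SE 0.0333, adjusted p = 0.00489), where 1.46% of all tested genes were called above 0 and 2.11% below 0. Without IL-13 Spcs2 was at 72.7 to 76.9 TPM in the 6 libraries with IL-33 and at 74.6 to 76.9 TPM in the 6 without it, a difference of 0.00 (95% interval -0.05 to 0.05). With median-ratio scaling 4 members were called and Spcs2, at 0.20, was not among them (limma adjusted p = 0.0619), and with voom on recovered reads 9 were called, Spcs2 included (limma adjusted p = 0.0223). Pdia3 at 0.09 (limma adjusted p = 0.057), Pdia4 at 0.16 (0.0581), Creld2 at 0.22 (0.0642), Sdf2l1 at 0.17 (0.0709), Herpud1 at 0.12 (0.0759) and Pdia6 at 0.09 (0.082) missed the threshold, and 9 members had an unadjusted p under 0.05. For these the data do not separate an IL-33 difference that depends on IL-13 from one that does not. The count of called members rose to 4 without untreated replicate 1 or without replicate 1 of IL-33 with IL-17A, to 3 without replicate 2 of the triple combination, and to 10 without the 3 libraries that stood apart. It was 2 without IL-17A replicate 1, without IL-33 replicate 2 or 3, without replicate 1 or 3 of IL-33 with IL-13, and without replicate 3 of the triple combination.

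**Figure D4:**
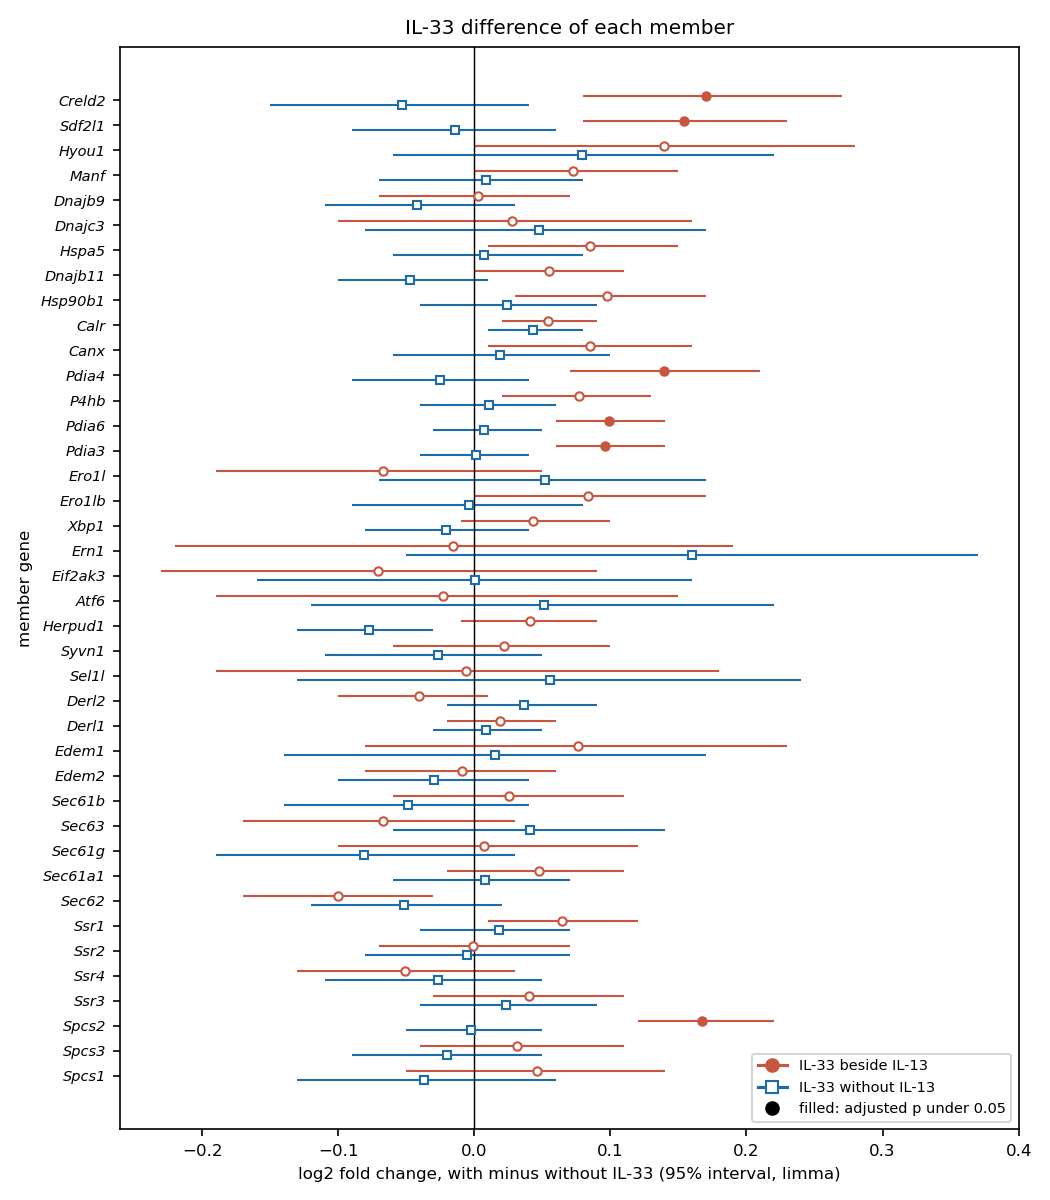
Log2 fold change of each member with minus without IL-33 (x axis, points with 95% intervals from limma), beside IL-13 (red circles) and without IL-13 (blue squares), with filled symbols at an adjusted p under 0.05. The 6 filled symbols are all red and lie between 0.10 and 0.17, and the blue squares lie between -0.08 and 0.16.

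Without IL-13, IL-33 called 0 of 40 members and 0 of 13215 genes (limma, 0% called), with 2 members at an unadjusted p under 0.05, Herpud1 at -0.08 and Calr at 0.04. Member differences ran from -0.08 (Sec61g) to 0.16 (Ern1), and the widest 95% interval reached 0.37, for Ern1. IL-17A called 0 members without IL-13 and 0 with it (limma, 0% of all genes in each), with 0 and 1 members at an unadjusted p under 0.05, and voom on recovered reads also called 0 members in these 3 comparisons. Without IL-13 the IL-17A differences ran from -0.03 to 0.07 and their intervals from -0.18 to 0.23. With IL-13 they ran from -0.11 (Dnajc3) to 0.07 (Sec61b) and their intervals from -0.28 to 0.16. The 1 member was Dnajb9 at -0.10, with 217.7, 208.7 and 219.6 TPM with IL-13 and IL-17A beside 245.9, 229.0 and 219.3 TPM with IL-13 (limma adjusted p = 0.974). The IL-17A by IL-13 interaction called 0 members (limma, 0% of all genes), with intervals between -0.38 and 0.2, and Dnajb9 was again the 1 member at an unadjusted p under 0.05, at -0.17. The IL-33 and IL-17A comparisons set 6 libraries against 6. A member that was not called may still differ by an amount within its 95% interval.

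Other genes of the secretory route, in lists drawn up beside the members, moved with IL-13 to different degrees (limma, mean of 4 backgrounds, where 20.0% of all genes rose and 30.9% fell). Of 12 tested oligosaccharyltransferase genes, which attach sugars to entering proteins, 10 rose and 0 fell, with a median log2 fold change of 0.35, Rpn1 at 0.61 and Ostc at 0.54. Of 8 genes of the signal recognition particle and its receptor, which bring ribosomes to the ER, 7 rose and 0 fell (median 0.26, Srprb at 0.40). Export carriers rose as well: 11 of 13 genes of the COPII coat (1 fell, median 0.31, Sec24d at 0.70), 10 of 11 of the COPI coat of the return route (1 fell, median 0.22, Cope at 0.50), and 12 of 14 KDEL and cargo receptors (0 fell, median 0.33, Tmed3 at 0.48 and Surf4 at 0.41).

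Lists nearer to quality control were mixed. Of 22 other degradation genes 5 rose and 4 fell, with a median of 0.00, and Derl3, a derlin gene of low level, rose by 1.73, from a median of 1.7 to 7.51 TPM (limma, SE 0.106, adjusted p = 5.69e-11). Of 12 other disulfide isomerase genes 7 rose and 3 fell (median 0.10), among them Qsox1 at 0.97, from a median of 31.8 to 62.8 TPM, and Txndc11 at 0.75. Of 10 genes of the calnexin cycle and glycan trimming 5 rose and 1 fell (median 0.13), with Fkbp2 at 0.45 and Ppib at 0.40. Of 7 other signal peptidase and translocation genes 3 rose and 1 fell (median 0.03), with Tram1 at 0.37. Of 15 other genes of the unfolded protein response 6 rose and 2 fell (median 0.04), with Atf4, the factor downstream of PERK, at 0.29 and Creb3l2 at 0.71. Cytosolic chaperones, set beside the ER list as a contrast, had 12 of 19 rise and 1 fall, with a median of 0.16 and Cct3 at 0.33. The member medians of 0.80 for chaperones, 0.59 for disulfide formation, 0.51 for the translocon, 0.51 for TRAP and 0.40 for degradation thus stand above the median of each of these lists, while those of 0.25 for signal peptidase and 0.08 for the sensors lie within their range. No test of that difference between lists was made.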

How the data were processed

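RNA of alveolar macrophages was measured in 24 libraries, and groups were taken from the treatment labels. The submitters' processing notes name STAR and mm10; the STAR version, the counting tool and the strand setting were not found in the sources used here. Each library has 1 deposited table of TPM values, which per the file headers come with a gene length; that length is the gene's span, introns included. Within a library TPM times span came in steps of 1 read: 89.9% to 91.4% of the values up to 20 reads were whole to within 0.05, which gave 9.13 to 12.89 M recovered reads per library and, divided by exon length, the levels used between genes. All 24 pairs of libraries within groups differed beyond sampling noise (index of dispersion 1.43 to 21.74), and each library was counted as 1 replicate. Technical repeats can differ in this way too, so the index does not show that the libraries are independent. Coordinates are 1-based on mm10.

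The 13215 genes that reached 1 TPM in 3 or more libraries were fitted with limma 3.58.1 (limma-trend, R 4.3.3) on log2(TPM + 1), with 8 group means, no covariate and 16 residual degrees of freedom. Fold changes on this scale understate those of low genes. P-values were adjusted by Benjamini and Hochberg's method over all tested genes of a comparison, with calls under 0.05. Promoters were searched with Python 3.11.15. The fit was tested on simulated data.

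The members and lists were chosen with earlier results of these data known. By rule, values by library, or as lowest, median and highest, are given for the 8 called members with the largest IL-13 change and up to 6 called for IL-33 beside IL-13. The rule also covers any member called without IL-13 or in an interaction, and the 4 sensors and factors. List genes are up to 3 called per list with the smallest p. TPM levels of Hspa5, Canx, Ero1l, Ero1lb, Sel1l, Sec61a1 and Sec62 are given outside this rule. Alternatives were pseudocounts of 0.1 and 5, no filter or one of 5 TPM, median-ratio scaling, voom on recovered reads, only the groups compared, leaving out each library in turn, and leaving out 4 libraries whose title number is above 24. These 4 all had IL-33: replicate 3 of IL-33, replicates 2 and 3 of IL-33 with IL-17A, and replicate 3 of the triple combination. What the number means is not stated, so in them a difference tied to it cannot be told apart from one of IL-33. Protein sequences were not used here.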

Additional observations from a re-analysis of the deposited data

Results flagged for a closer look

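Spcs2, the signal peptidase subunit gene, was picked out because its IL-33 difference was not the same with and without IL-13. The interaction was 0.17 on the log2 scale (limma, SE 0.0333, adjusted p = 0.00489), from a difference of 0.17 beside IL-13 and 0.00 without it. All 6 libraries with both IL-33 and IL-13 were above the 6 with IL-13 and no IL-33. Without IL-13, Spcs2 was at 76.9, 76.4 and 72.7 TPM with IL-33, and at 76.0, 76.3 and 72.8 TPM with IL-33 and IL-17A. The third library of IL-33 and the last 2 of IL-33 with IL-17A have title numbers above 24. The interaction was also fitted without the 4 libraries numbered above 24, but that value is not given here. A difference tied to the numbering cannot be told apart from one of IL-33. The call held in each of the 24 fits that left out 1 library and with voom (limma adjusted p = 0.0223), and was lost with median-ratio scaling, where the value was 0.20 (limma adjusted p = 0.0619).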

How the results depend on the processing

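The count of members called with IL-13 over the 4 backgrounds was 33 and stayed between 33 and 37 under all alternatives run for it, the 37 with median-ratio scaling. In each background alone it was 31 to 35, and lower on IL-33 with IL-17A without the 4 libraries with title numbers above 24 (27) and with only the groups compared (28). IL-33 without IL-13, IL-17A and the IL-17A by IL-13 interaction called 0 members when any 1 library was left out. The IL-33 counts beside IL-13 changed, and the cause was not tested. For IL-33 with IL-13 present the count was 6, and 12 with median-ratio scaling, 15 with voom on recovered reads, 13 without the 3 libraries that stood apart (an alternative chosen after seeing the data) and 5 to 11 with 1 library left out. For the IL-33 by IL-13 interaction it was 1, and 4, 9, 10 and 1 to 4 in the same order. For IL-33 added to IL-13 it was 2, and 5, 7, 8 and 0 to 2, with 0 from only the groups compared. For IL-33 added to IL-13 with IL-17A it was 2, and 8, 10, 5 and 1 to 2, with 0 from only the groups compared, where 6 libraries set the spread. Leaving out IL-13 replicate 3 gave the 0 for IL-33 added to IL-13. Of the values of single named members under alternatives, 620 kept direction and call, 29 kept direction and lost the call, and 0 changed sign. No paired analysis was possible because the labels give no replicate number shared across groups. In the IL-13 comparison over the 4 backgrounds the standard errors were largest for Ern1, Sel1l, Atf6 and Eif2ak3 (0.0692, 0.0617, 0.0573 and 0.0525), and the member with the fewest reads in a library was Sec61g, at 359.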

Other observations

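Outside the members, 8 tested genes had the strict ER stress element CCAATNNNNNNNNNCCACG in their RefSeq promoter. With IL-13 3 of them rose and 1 fell (limma, mean of 4 backgrounds), with a median log2 fold change of 0.12, where 22.9% of the 8951 other tested genes with a promoter rose. The 3 were Derl3, Alg12, which encodes a mannosyltransferase of the sugar precursor, and Adcy3, an adenylate cyclase gene, named after their values were seen. Of 92 other tested genes with the UPRE letters TGACGTGG, 37 rose and 23 fell, with a median of 0.04. These counts are descriptions and were not tested.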
